A study of Mus musculus with 4 samples.

Results

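A set of 10 genes for haematopoietic growth factors and interleukins was followed through the RNA-seq data of 2 mouse colorectal cancer cell lines. The genes were Csf1, Csf2, Csf3, Lif, Il6, Il11, Il18, Il33, Il34 and Il1rn, taken by gene symbol from the 51905 genes of the deposited tables, and each was found once. The lines were CT26 and MC38, labelled wild type, and each received lentiviral shGFP, a control hairpin to a gene mouse cells lack, or lentiviral shmaurka-1, a hairpin to the mitotic kinase Aurora-A. Infected cells were selected with puromycin as mixed populations, a single hairpin sequence was used, and RNA was taken 48 h after seeding. Each of the 4 conditions was sequenced as 1 library, so differences within a line are without replicates. CT26 was grown in RPMI-1640 and MC38 in high-glucose DMEM with HEPES and non-essential amino acids, so that line, medium and any difference in mouse strain cannot be told apart.

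Colony-stimulating factors drive the production, survival and activation of myeloid cells. Csf1 (M-CSF) and Il34 are the ligands of the receptor Csf1r and sustain monocytes and macrophages, Csf2 (GM-CSF) acts on granulocytes, macrophages and dendritic cells, and Csf3 (G-CSF) acts on neutrophils. Lif, Il6 and Il11 belong to the family that signals through the shared receptor chain Il6st (gp130) and the JAK-STAT pathway. Il18 and Il33 are cytokines of the interleukin-1 family, made without a classical signal peptide, and Il1rn is the antagonist that occupies the interleukin-1 receptor without signalling. Tumour cells can make several of these factors, and myeloid cells in tumours respond to them.

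The libraries held 22207769 to 23752267 fragments, counted by dividing the deposited estimated counts by the step between low values of each library. Aurka, the targeted gene, had 5724 fragments in CT26 shGFP, 1093 in CT26 shmaurka-1, 2300 in MC38 shGFP and 413 in MC38 shmaurka-1, a common log2 fold change of -2.35 (SE 0.11, edgeR adjusted p = 3.7e-94). CT26 is labelled a fibroblast and MC38 an epithelial cell. Of the defining epithelial markers, Epcam had at most 1 fragment and Cdh1 at most 6 in any library, while Krt18 stood at 33.7 and 37.4 FPKM in CT26 and at 0.222 and 0.264 in MC38, and Vil1 had 0 fragments in CT26 and 38 and 29 in MC38. Of the 12 epithelial markers 4 were tested, and 2 (Krt18 and Krt20) were called higher in CT26 and 1 (Vil1) higher in MC38. With 0 fragments in CT26, Vil1 could pass the filter, a mean of at least 10 counts over the 4 libraries, only through MC38. Krt18 and Krt20 had fitted log2 differences of 7.12 and 8.31 and owed their pass largely to CT26. These counts are therefore a description. The defining markers Epcam and Cdh1 were thus near 0 in MC38 as in CT26. The 10 fibroblast markers summed to 525 and 548 FPKM in CT26 and to 346 and 295 in MC38. Of 9 tested 4 were called higher in CT26, among them Col1a2 (log2 difference 3.40) and Pdgfrb (0.95). In MC38 2 (Pdgfra and Col3a1) were called higher, and 3 were called neither way. Of all genes 36.4% and 39.6% were called higher in CT26 and in MC38. Of 12 leukocyte markers, 7 did not exceed 3 fragments anywhere, Cd3e had 0 and Ptprc (CD45) 0 to 3, and the summed level of the 12 was 4.96 to 8.69 FPKM. Of 3 tested, 0 were called higher in CT26 and 2 (Lyz2 and Csf1r) higher in MC38, against 36.4% and 39.6% of all genes. The log2 difference of Lyz2 was -0.96 (SE 0.32, edgeR adjusted p = 0.0047). In bulk RNA, fewer cells making a transcript and less of it per cell cannot be told apart.

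The promoters of the 4 genes that differed most between the lines, Csf1, Csf2, Lif and Il11, are shown with that of Il6, a textbook target of NF-kB. Each line holds 250 bases before and 50 after a transcription start, 5′ to 3′ on the strand of the gene, from RefSeq (GRCm38.p6), at chr3:107760420-107760719 (minus strand) for Csf1, chr11:54249850-54250149 (minus) for Csf2, chr11:4257318-4257617 (plus) for Lif, chr7:4778092-4778391 (minus, the second of the listed starts) for Il11 and chr5:30012864-30013163 (plus) for Il6. Capitals mark matches, on either strand, to a loose NF-kB motif (3 G, any bases, then CC, over 10 bases) or to TGANTCA, the AP-1 motif.
Csf1: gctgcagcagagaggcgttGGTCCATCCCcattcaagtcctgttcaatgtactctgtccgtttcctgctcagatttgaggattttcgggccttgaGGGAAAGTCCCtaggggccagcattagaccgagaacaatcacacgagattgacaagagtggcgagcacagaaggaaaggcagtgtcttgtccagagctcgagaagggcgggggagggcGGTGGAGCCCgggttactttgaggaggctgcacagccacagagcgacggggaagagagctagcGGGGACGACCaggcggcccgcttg
Csf2: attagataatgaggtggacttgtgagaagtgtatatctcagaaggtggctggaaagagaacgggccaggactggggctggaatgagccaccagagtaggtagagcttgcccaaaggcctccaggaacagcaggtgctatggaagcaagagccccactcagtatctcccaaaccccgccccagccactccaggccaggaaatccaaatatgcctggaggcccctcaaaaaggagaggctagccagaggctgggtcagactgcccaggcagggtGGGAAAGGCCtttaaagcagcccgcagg
Lif: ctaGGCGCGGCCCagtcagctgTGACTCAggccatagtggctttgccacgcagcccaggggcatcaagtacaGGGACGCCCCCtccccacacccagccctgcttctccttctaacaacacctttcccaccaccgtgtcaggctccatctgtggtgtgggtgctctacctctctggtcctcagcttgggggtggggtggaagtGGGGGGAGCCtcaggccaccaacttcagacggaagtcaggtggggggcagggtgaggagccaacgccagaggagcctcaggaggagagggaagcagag
Il11: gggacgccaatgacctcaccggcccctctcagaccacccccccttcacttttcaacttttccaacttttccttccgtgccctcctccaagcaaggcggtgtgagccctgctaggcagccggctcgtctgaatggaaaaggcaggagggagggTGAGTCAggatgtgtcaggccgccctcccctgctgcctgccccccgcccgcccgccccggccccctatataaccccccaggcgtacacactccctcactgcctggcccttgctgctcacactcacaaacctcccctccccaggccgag
Il6: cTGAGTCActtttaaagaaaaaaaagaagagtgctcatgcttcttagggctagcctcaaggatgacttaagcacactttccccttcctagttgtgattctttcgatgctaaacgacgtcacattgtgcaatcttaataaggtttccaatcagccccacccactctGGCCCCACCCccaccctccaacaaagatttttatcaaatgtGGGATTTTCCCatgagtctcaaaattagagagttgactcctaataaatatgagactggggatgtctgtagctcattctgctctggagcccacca
Of the 10 genes, 8 had a promoter in the table, some with more than 1 start. Matches to the NF-kB motif began at 5 positions in the Csf1 window, 4 in Lif, 3 in Il6, 1 in Csf2 and 0 at this start of Il11, and some of these overlap each other. The Il11 start shown is the one that holds an AP-1 match, and the other start listed had 2 NF-kB matches and 0 AP-1 matches. That motif was found in 50.8% of all 32851 promoters of the same length, so holding a match sets none of these windows apart. TGANTCA was found once in each of the windows of Lif and Il6, and in neither of those of Csf1 and Csf2, against 7.81% of all promoters. This start of Il11 also held 1 match, but the other start did not, so it is not set against that share. Outside the windows printed, the first listed start of Il1rn, the gene called higher in MC38, held 1 match too. The STAT motif TTCNNNGAA (8.30% of promoters), the TATA box TATAAA (13.6%) and an interferon-stimulated response element (3.44%) had no match in any of the 5 windows printed. A match is a description of the sequence and not a bound site.

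In the GRCm38 coordinates of the deposited tables, Csf1 is at chr3:107741047-107760469, Csf2 at chr11:54247270-54254495, Lif at chr11:4257556-4272514 and Il11 at chr7:4772372-4782857. Of the 10, Csf2, Il18 and Il34 have a locus that covers other genes, so that reads of those genes may be split with them, since the use of strand in counting is not given in the sources used here. The locus of each of the other 7 genes covers no other gene. Among the genes named further on, the loci of Csf1r, Csf2rb, Il6ra, Il11ra1, Il1r1, Il1rap, Aim2, Stat5a, Ptpn6, Pim1, Cntf, Flt3l, Clcf1, Ctf1 and Atf3 also cover other genes. So do those of the markers Vil1, Col1a2, Pdgfra, Col3a1, Ptprc and Cd3e named above. The same limit holds for the values of all these genes.

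Levels compared between genes are FPKM, which scales fragments to transcript length and library size. Csf1 dominated the set in every library. It stood at 471 FPKM in CT26 shGFP, 571 in CT26 shmaurka-1, 25.8 in MC38 shGFP and 37.2 in MC38 shmaurka-1. Both CT26 libraries were far above both MC38 libraries, and Csf1 ranked 157 and 127 among all genes by FPKM in CT26 against 3899 and 2726 in MC38. Of the counts of the 10 genes together, Csf1 took 84.0% and 87.6% in CT26 and 79.6% and 83.7% in MC38. With Lif added, the share came to 95.8% or more in every library. The 10 genes together took 0.237% and 0.271% of all counts in CT26 and 0.0154% and 0.0206% in MC38.

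Lif, the leukaemia inhibitory factor, was next in all 4 libraries at 125, 123, 8.76 and 13.3 FPKM, in the order CT26 shGFP, CT26 shmaurka-1, MC38 shGFP and MC38 shmaurka-1, which is kept for all values below. Csf2 followed in CT26 with 22.3 and 12.7 FPKM and was at 0 and 0.0557 in MC38. These MC38 values were 0 and 1 fragments, so Csf2 was at or under the floor of 3 fragments there, which allows up to 3 fragments for a count of 0. Il11, a gp130 cytokine with roles in bone and stroma, stood at 12.1, 6.84, 0.568 and 0.402 FPKM. Lif and Il11 showed no overlap between the lines, and neither did Csf2.

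The other cytokines were low. Il6, the acute-phase inducer, stood at 3.11, 4.08, 0.992 and 0.646 FPKM, from 44, 54, 18 and 11 fragments. Il34 stood at 2.80, 2.49, 1.41 and 1.21 FPKM, from 88, 77, 45 and 48 fragments. These 2 genes neighbour each other in the order of levels in CT26, and with fewer than 100 fragments each their order there is loosely set.

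Il33, an alarmin released from damaged cells, stood at 1.71, 0.888, 0.234 and 0.0875 FPKM, from 54, 32, 11 and 4 fragments. Il1rn was the only one of the tested genes to be lower in both CT26 libraries, with 15, 12, 48 and 36 fragments. Its deposited FPKM was 0.383, 1.31, 1.81 and 1.13, so in CT26 the FPKM was 3.43 times higher with shmaurka-1 while the scaled count ratio was 0.874. Il33 and Il1rn exchanged places in the order of levels between the CT26 libraries, and Il1rn and Il34 did so between the MC38 libraries. Csf3 had 1, 2, 1 and 2 fragments and Il18 had 0, 0, 3 and 1, so neither was detectable above the floor in either line.

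**Figure D1:**
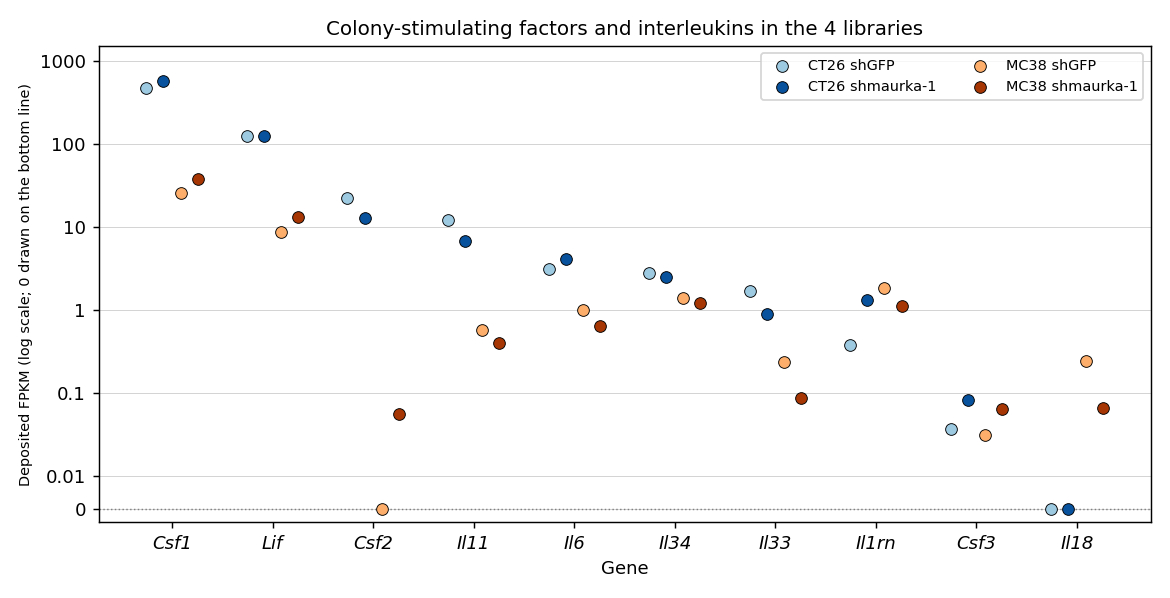
Deposited FPKM (y axis, log scale, with 0 drawn on the bottom line) of the 10 cytokine genes (x axis) in each of the 4 libraries, 1 point per library. The CT26 points of Csf1, Lif, Csf2 and Il11 lie far above the MC38 points, and Csf1 is highest in every library, at 471 and 571 FPKM in CT26 and 25.8 and 37.2 in MC38.

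The profile of the lines was compared with edgeR's quasi-likelihood test on rounded counts, with knockdown as a covariate and Benjamini-Hochberg adjustment over 14013 genes with a mean of at least 10 counts. Of the 10 genes, 8 passed that filter and Csf3 and Il18 did not. A gene of use to 1 line only could pass through that line, which holds for Csf2 and Il33, so the counts over the 8 are given as a description. Of the 8, 7 were called higher in CT26 and 1 higher in MC38. With a mean of at least 10 counts required in each line, Csf2 and Il33 were not tested and 5 were called higher in CT26. Of all genes tested, 36.4% were called higher in CT26 and 39.6% higher in MC38, or 76.0% in either direction. The median log2 difference over the 8 genes was 3.35, and over all genes tested -0.04. By scaled counts, both CT26 libraries lay above both MC38 libraries for 7 of the 8 genes and below them for 1, as they did for 41.7% and 44.7% of all genes tested.

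Csf2 was the extreme case. Its 511 fragments in CT26 against 1 in MC38 gave a ratio of 644 for the summed libraries (exact 95% counting interval 115 to 25469). Il11 was 21.5-fold higher in CT26, a log2 difference of 4.43 (SE 0.25, edgeR adjusted p = 9.0e-67), with 387 genes as high or higher. Csf1 was 18.9-fold higher in CT26, a log2 difference of 4.24 (SE 0.10), with 413 genes as high or higher. Lif was 15.3-fold higher, a log2 difference of 3.93 (SE 0.11, edgeR adjusted p = 2.6e-259), with 455 genes as high or higher. Il11, Csf1 and Lif, which had counts in both lines, thus lay in the upper tail of the difference between the lines.

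Among the lower cytokines, Il33 had a fitted log2 difference of 2.77 (SE 0.49), given as a description because it passed the filter only through CT26. Il6 was 4.23-fold higher in CT26 (log2 difference 2.08, SE 0.42, edgeR adjusted p = 1.5e-06). Il34 was 2.23-fold higher in CT26, a log2 difference of 1.16 (SE 0.31, edgeR adjusted p = 0.000288). Il1rn ran the other way and was 2.42-fold higher in MC38, a log2 difference of -1.27 (SE 0.44, edgeR adjusted p = 0.0051). The calls of Il34 and Il1rn did not hold in DESeq2, with adjusted p = 0.112 and 0.275, and that of Il1rn did not hold on deposited FPKM. The 2 libraries of a line differ in hairpin, and the p-values rest on the spread that the line and knockdown terms leave over the 4 libraries.

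**Figure D2:**
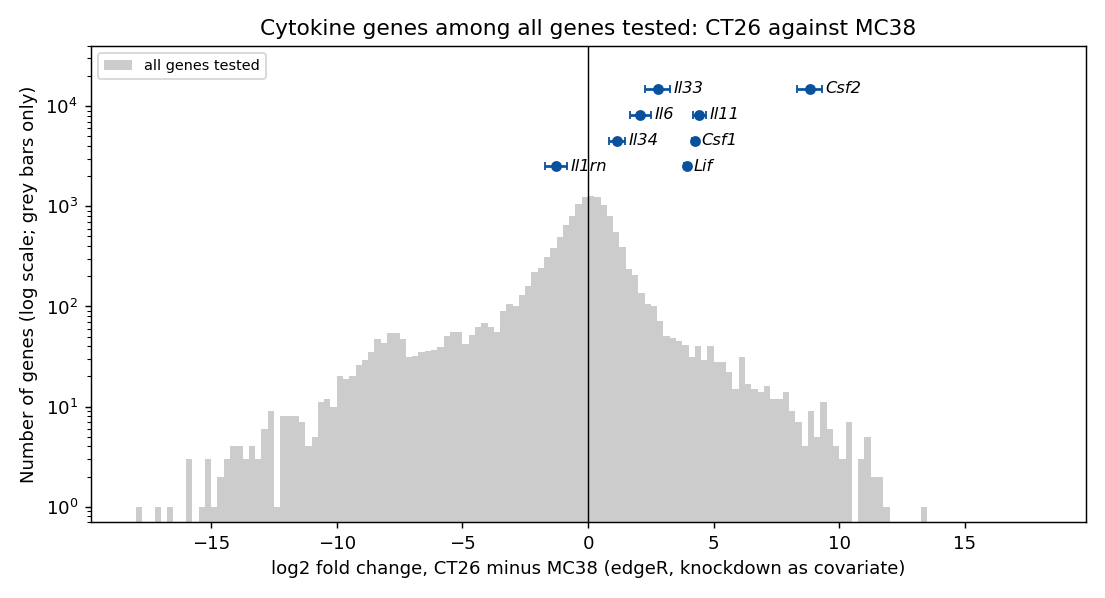
Histogram of the log2 fold change between the lines (x axis, CT26 minus MC38, edgeR) for all 14013 genes tested (grey bars, number of genes on a log y axis), with the 8 tested cytokine genes as points with bars of 1 SE, their height having no meaning. Csf2 lies at 8.82, Il11, Csf1 and Lif lie between 3.93 and 4.43, and Il1rn is the 1 point left of 0.

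Whether knockdown of Aurora-A moved the same cytokines was asked first over both lines, with edgeR's test of the knockdown term and cell line as a block. Csf1 was the 1 cytokine called, of 8 tested, and it rose in both lines. The test called 2.38% of all genes in either direction. Its fragments went from 47353 with shGFP to 52637 with shmaurka-1 in CT26, and from 2810 to 3940 in MC38. Scaled to library size, Csf1 was 1.20-fold higher in CT26 (log2 0.27, exact 95% counting interval 0.25 to 0.28) and 1.43-fold higher in MC38 (log2 0.52, 0.45 to 0.59). The common log2 fold change was 0.39 (SE 0.09, edgeR adjusted p = 0.0019), a 1.31-fold rise. Of all genes tested, 1.38% were called higher and 0.999% lower, and 718 genes had a common fold change as high as that of Csf1 or higher. The call held in DESeq2 (adjusted p = 0.0218) and was lost in limma on log2 FPKM (adjusted p = 0.400 and 0.331 with pseudocounts of 1 and 0.1) and without the line as a block (adjusted p = 1.00). Both lines' intervals lay above no change for Csf1, as they did for 7.09% of genes tested, no cytokine had both below, as 6.54% of genes did, and neither line passed 1.5-fold.

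Csf2 and Il11 were the cytokines past the fold thresholds in CT26. In CT26 the fragments of Csf2 numbered 339 for the control and 172 for shmaurka-1, a ratio of 0.550 (log2 -0.86, interval -1.14 to -0.60). Il11 had 503 and 269 fragments in CT26, a ratio of 0.580 (log2 -0.79, interval -1.01 to -0.58). In CT26, 0 of the 8 tested genes were above 1.5-fold and 2 were below 0.6, against 5.19% and 5.18% of all genes tested. MC38 gave no fold for Csf2, which was at the floor in both of its libraries. Il11 had 23 and 21 fragments in MC38, a log2 fold change of -0.09 with an interval of -1.02 to 0.82 that holds the CT26 value. Over both lines edgeR gave -0.82 (SE 0.29, adjusted p = 0.127, unadjusted p = 0.00484) for Csf2 and -0.65 (SE 0.23, adjusted p = 0.114, unadjusted p = 0.00412) for Il11. With 0 and 1 fragments of Csf2 in MC38, its value rests on the 1 pair of CT26 libraries and is not an effect seen in both lines. No cytokine was called lower over both lines by edgeR. It left 2 at an unadjusted p under 0.05, Il11 and, through CT26 alone, Csf2, against 756 of the 14013 genes tested. DESeq2 gave an adjusted p for 2 of the 8, Csf1 and Lif, so its count of 0 lower says nothing of Csf2 and Il11.

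Il33 was lower with shmaurka-1 in both lines by its values but did not pass. Log2 ratios were -0.63 (-1.32 to 0.01) for CT26 and -1.21 (-3.53 to 0.33) for MC38, and the common value was -0.79 (edgeR adjusted p = 0.552). The MC38 ratio of 0.431, from 11 and 4 fragments, made Il33 the 1 gene of the set past a threshold in that line. Of all genes tested in MC38, 4.06% were above 1.5-fold and 2.43% below 0.6.

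Lif had 7950 and 6824 fragments in CT26 and 570 and 644 in MC38. The log2 ratio was -0.11 (interval -0.16 to -0.06) for CT26 but 0.21 (0.04 to 0.37) for MC38, and the common value was 0.03 (edgeR adjusted p = 0.970). The counting intervals of Lif thus lay on opposite sides of no change, though a difference between lines within the knockdown effect could not be tested with 1 library a condition. On deposited FPKM the MC38 ratio of Lif was 1.52, above the count ratio of 1.16.

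For Il6 the log2 ratio was 0.40 (interval -0.19 to 1.01) in CT26 but -0.63 (-1.91 to 0.48) in MC38, with edgeR adjusted p = 0.985 over both lines. Il34 gave -0.08 (-0.54 to 0.38) and 0.12 (-0.49 to 0.75), and Il1rn -0.19 (-1.44 to 0.98) and -0.37 (-1.05 to 0.27). With 4 to 88 fragments per library, changes of the size seen for Csf1 were not detectable in Il6, Il33, Il34 or Il1rn. Counting intervals lay above no change for 1 and below it for 3 of the 8 genes in CT26, and above it for 2 and below it for 0 of the 7 with an interval in MC38. Among all genes tested these shares were 18.3% above and 19.8% below in CT26, and 21.4% above and 20.1% below in MC38.

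**Figure D3:**
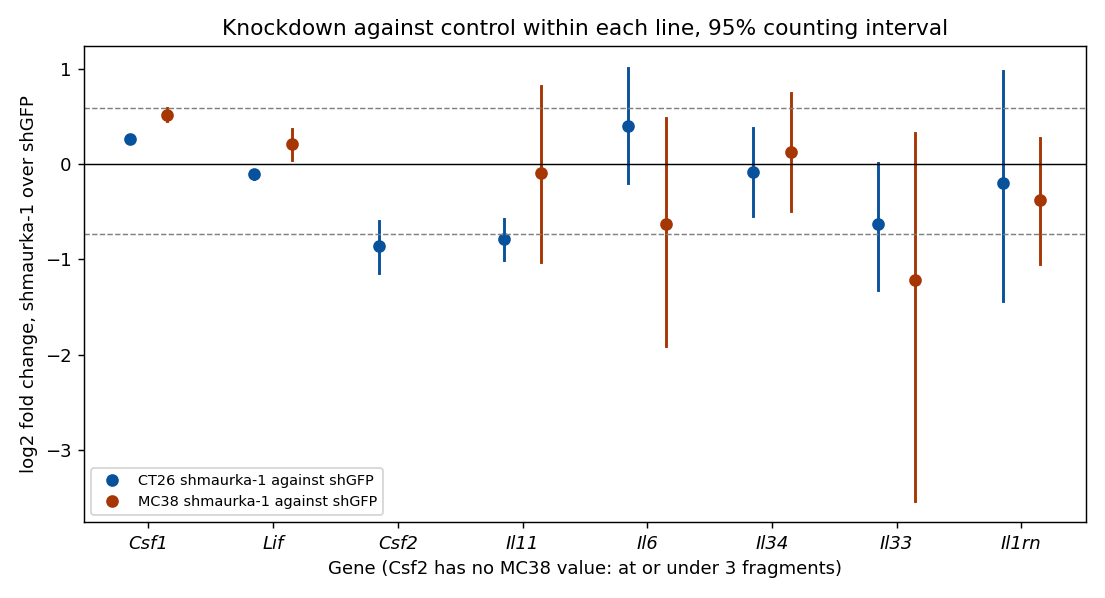
Log2 fold change of shmaurka-1 over shGFP (y axis) within CT26 and within MC38 for the tested cytokine genes (x axis), as points with exact 95% counting intervals, which cover counting error only; the dashed lines mark 1.5-fold and 0.6-fold. Csf1 is above 0 in both lines (0.27 and 0.52), Csf2 and Il11 are below 0.6-fold in CT26 (-0.86 and -0.79), and the intervals of Il6, Il34 and Il1rn include 0 in both lines.

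Of 18 genes for receptors of these cytokines 12 were tested, and 6 were called higher in CT26 and 6 higher in MC38, against 36.4% and 39.6% of all genes tested. Their median log2 difference was -0.02, and that of all genes -0.04. Csf1r, the receptor of Csf1 and Il34, was at 0.0931, 0.149, 0.335 and 0.211 FPKM, so the 2 lines carried little transcript for it. Csf2ra and Csf3r had at most 3 fragments in any library, and Csf2rb, the signalling chain for GM-CSF, at most 14. The receptor chains for GM-CSF and G-CSF were thus near the floor in both lines.

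The gp130 chain Il6st stood at 39.5, 40.6, 19.5 and 20.3 FPKM, a log2 difference of 1.10 (SE 0.10) between the lines. Il6ra, the ligand-binding chain for Il6, stood at 14.6, 12.3, 3.82 and 3.09 FPKM and was 3.88-fold higher in CT26. Il11ra1, which binds Il11, stood at 1.66, 1.37, 0.419 and 0.635 FPKM. Lifr went the other way from Lif, at 0.115, 0.0757, 1.93 and 1.12 FPKM, a log2 difference of -3.86 (SE 0.30). Osmr, the partner of gp130 for oncostatin M, stood at 0.116, 0.109, 6.26 and 4.75 FPKM, a fitted log2 difference of -5.67 (SE 0.27). Osmr and Cntfr passed the filter only through MC38, so the count of receptors higher in that line holds them by construction.

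Il1rl1, the receptor of Il33 (ST2), stood at 197, 171, 9.29 and 12.1 FPKM, a log2 difference of 4.18 (SE 0.11). It was the highest of the receptors named here in CT26. In MC38 it lay below Il6st and Sdc1, and in MC38 shGFP also below Il1rap. The fragments of Il33 were likewise more numerous in both CT26 libraries. Il18rap, the accessory chain for Il18, stood at 31.8, 33.4, 7.37 and 6.64 FPKM, while the ligand-binding chain Il18r1 had at most 1 fragment in any library. Il1r1, which Il1rn blocks, stood at 22.5, 22.1, 4.92 and 3.93 FPKM, and its accessory chain Il1rap at 4.06, 4.11, 9.60 and 9.26. Sdc1, the syndecan of the list, was higher in MC38 by a log2 difference of -2.83 for CT26 minus MC38 (SE 0.15). Knockdown called 0 of the 12 receptors in edgeR, with 2 lower and 0 higher at an unadjusted p under 0.05, against 756 lower and 818 higher of all 14013 genes. DESeq2 called 0 of the 7 for which it gave an adjusted p.

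Genes that process or buffer these cytokines were tested as a list of 13, of which 10 passed the filter. Between the lines 3 were called higher in CT26 and 6 higher in MC38, against 36.4% and 39.6% of all genes, with a median log2 difference of -0.54 against -0.04. Gsdmd and Nlrp3, 2 of the 3, passed the filter only through CT26. Gsdmd, the pore-forming protein through which interleukin-1 family cytokines can leave a cell, had 356, 378, 0 and 1 fragments. Nlrp3, an inflammasome sensor, had 155, 157, 6 and 0 fragments. Casp1, the protease that matures Il18, went the other way with 39, 59, 266 and 301 fragments. The sensor Aim2 was higher in CT26, at 37.7, 36.2, 17.2 and 16.6 FPKM. Knockdown called 0 of the 10 genes in edgeR, with 1 higher and 1 lower at an unadjusted p under 0.05, against 818 and 756 of all 14013 genes. DESeq2 called 0 of the 5 for which it gave an adjusted p.

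Of 18 genes of JAK-STAT signalling all were tested. Pim1, a kinase induced by STAT factors, had 789, 327, 577 and 482 fragments and fell with knockdown (common log2 -0.70, SE 0.14, edgeR adjusted p = 0.000323), with log2 values of -1.16 in CT26 and -0.23 in MC38. DESeq2 did not call Pim1. Between the lines 7 of the 18 were called higher in CT26 and 5 higher in MC38, against 36.4% and 39.6% of all genes, with Stat5a at 0.873, 0.547, 10.0 and 9.17 FPKM and Junb at 220, 183, 25.7 and 22.1. Ptpn6 (log2 difference 2.49, SE 0.36) and Socs2 (1.53, SE 0.17) were higher in CT26.

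Of 30 related ligands found, 16 did not exceed 3 fragments anywhere and 8 were tested. The detected ones included Kitl (stem cell factor), at 31.5, 30.1, 10.9 and 11.2 FPKM and higher in CT26 by a log2 difference of 1.74 (SE 0.12). Cntf, a gp130 cytokine, was higher in CT26 (log2 difference 3.27, SE 0.35), and Flt3l and Il15 were higher in MC38 (log2 differences -2.37, SE 0.23, and -1.80, SE 0.32). Between the lines 4 of the 8 were called higher in CT26 and 3 higher in MC38, against 36.4% and 39.6% of all genes, and Ctf1 passed the filter only through MC38. Knockdown called 1 of the 8 lower, against 0.999% of all genes, and this was Clcf1, a gp130 ligand named here after its values were seen. It had 66, 5, 23 and 10 fragments and a common log2 fold change of -2.46 (SE 0.49, edgeR adjusted p = 0.000137), and DESeq2 gave it no adjusted p.

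Of 20 regulators of stress and NF-kB responses, 17 were called higher in CT26 and 3 higher in MC38, against 36.4% and 39.6% of all genes tested. Their median log2 difference was 1.39, and that of all genes -0.04. Tnfaip3, an NF-kB-induced inhibitor of the same pathway, had 3653, 3605, 127 and 121 fragments. The AP-1 subunit Fosl1 stood at 330, 410, 13.9 and 19.4 FPKM, and Nfkbiz, a nuclear NF-kB cofactor, at 65.7, 81.1, 2.88 and 4.39. Atf3 went the other way at 0.452, 0.263, 9.17 and 11.3 FPKM. With knockdown, Nfkbiz (common log2 0.39, SE 0.11, edgeR adjusted p = 0.0217) and Fosl1 (0.34, SE 0.10, adjusted p = 0.0187) rose, and 2 called of 20 compares with 1.38% of all genes called higher. DESeq2 called 0 of the 16 for which it gave an adjusted p, these 2 among them. Their part in the levels of the cytokine genes was not tested.

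AU-rich elements, short ATTTA repeats in 3′ untranslated regions, are known to shorten the life of many cytokine transcripts. ATTTA was found in this region of 9 of the 10 genes, in numbers that ranged widely. The median tested gene with such a region held 2 copies, so holding a copy does not set these genes apart. The stretch of 30 bases with most ATTTA copies is shown for 4 of the transcripts that differed most between the lines, as DNA letters, 5′ to 3′, from the canonical GENCODE vM39 transcripts, with ATTTA in capitals.
Csf2: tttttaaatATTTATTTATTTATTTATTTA
Il11: ctttaaaaccagatcttATTTATTTATTTA
Lif: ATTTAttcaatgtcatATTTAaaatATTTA
Csf1: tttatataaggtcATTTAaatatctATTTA
ATTTA occurred 9 times in the region of Csf2 (317 bases), 10 times in Il11 (1194), 7 in Lif (3180) and 4 in Csf1 (2111). It occurred 6 times each in Il6 and Csf3, 5 in Il33, once in Il18 and in Il34, and not at all in Il1rn. Per kilobase this was 28.4 for Csf2, 14.1 for Il6, 8.38 for Il11 and 1.89 for Csf1, against a median of 1.36 over 11961 tested genes with such a region. The longer form TTATTTATT was present in 3 of the 10 genes, with 4 copies in Csf2, 5 in Il11 and 2 in Lif, and in 9.27% of those tested genes. Csf2 and Il11, the 2 genes below 0.6-fold with knockdown in CT26, thus shared the longer form with Lif, whose change in CT26 was -0.11 on the log2 scale. Any part of these elements in the levels or the changes of the transcripts was not tested.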

How the data were processed

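RNA-seq libraries of CT26 and MC38 cells with shGFP or shmaurka-1 were analysed from deposited tables. The authors deposited estimated counts, already divided by a factor for each library, and FPKM for every gene. The submitters' processing notes name Trimmomatic 0.36, HISAT2, Cufflinks 2.2.1 and Cuffdiff, and the build GRCm39, but 99.8% of 20022 genes overlapped their RefSeq GRCm38.p6 position and 8.91% of 26866 their GRCm39 position. The kit was strand-specific, and the use of strand in counting is not given in the sources used here.

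Estimated counts were rounded and tested in edgeR 4.0.16 (R 4.3.3; quasi-likelihood test, TMM, line and knockdown as terms, residual df of 1, Benjamini-Hochberg at 0.05). The prior df came out infinite, which means that all genes share the spread. Fragments were recovered by dividing by the step between low values, with 96.5% to 97.6% of values whole within 0.05. Within a line, ratios are TMM-scaled counts with 1 count added, with exact (Clopper-Pearson) 95% intervals on fragments, which cover counting error only and compare 2 libraries, not conditions. The thresholds of 1.5 and 0.6 are the study's. DESeq2 1.42.0, limma 3.58.1 on deposited FPKM, other scalings, filters and added counts were alternatives.

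The genes described and the lists (receptors, processing genes and decoys, JAK-STAT signalling, related ligands, stress and NF-kB regulators, markers of 3 cell types) were chosen with earlier results of these data known. Named from each list, except the markers of cell types, were the 4 genes at most with the largest change in each comparison among those called averaging 50 counts or more, and the receptor chains of the cytokines. The markers of cell types are named in part only. A further gene is not reported here. Of the 34 related ligands listed, 30 were found by symbol. Motifs were searched on both strands of promoters, and on the transcript strand of 3′ regions. Python 3.11.15 with scipy 1.17.1 was used for the other computations.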

Additional observations from a re-analysis of the deposited data

Results flagged for a closer look

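By scaled counts of Lif, Il6 and Il34, the knockdown library of each line moved to opposite sides of its control. No share over all genes tested was taken for this pattern. The log2 fold change of Lif was -0.11 in CT26 and 0.21 in MC38, and both counting intervals excluded no change. On deposited FPKM with a pseudocount of 0.1 these Lif values were -0.028 and 0.60, both outside those intervals. Il6 had 0.40 in CT26 and -0.63 in MC38, and Il34 had -0.078 in CT26 and 0.12 in MC38, with intervals that included no change in both lines. On deposited FPKM the MC38 value of Il34 was -0.20 with a pseudocount of 0.1 and -0.12 with 1, so both lines then had the same sign. Whether the effect differs by line was not tested for these genes, because 1 library per condition leaves no spread for it.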

How the results depend on the processing

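Leaving out a library could not be fitted, since 3 libraries leave no residual degree of freedom for the line and knockdown terms. In the knockdown comparison edgeR called 194 genes higher and 140 lower, and the higher count was 121 when genes averaging under 50 counts were left out. DESeq2, which gave an adjusted p for 7764 genes, called 35 and 14, limma on either FPKM scale called 0 and 1, and the fit with no replicate block called 0 and 0, with 3 genes at an unadjusted p under 0.05. The labels give no replicate numbers, so line served as the block. The 1 cytokine called higher went to 0 in both limma fits and with no replicate block. Il1rn, the 1 cytokine called higher in MC38, was not tested with genes averaging under 50 counts left out, and its call was lost in DESeq2 and in both limma fits.

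Within CT26, 727 genes were above 1.5-fold and 726 below 0.6. These were 451 and 385 with 5 counts added, 467 below on FPKM with a pseudocount of 0.1, and 231 and 98 with a pseudocount of 1. Within MC38, 569 were above and 341 below, against 176 below with 5 counts added, and 176 above and 37 below on FPKM with a pseudocount of 1. On FPKM, 1 cytokine was above 1.5-fold in CT26 with either pseudocount (Il1rn) and 1 in MC38 with 0.1 (Lif), and Il33 was no longer below 0.6 in MC38 with 1, leaving 0. In CT26, 3 cytokines were below 0.6 with 0.1, as Il33 (log2 -0.88) joined Csf2 and Il11.

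The signs of uncalled knockdown values over both lines turned as follows, and the cause was not tested. Il34 came to -0.018 with total-count scaling, -0.0021 under that filter, -0.12 and -0.18 in limma with pseudocounts of 1 and 0.1, and -0.017 with no replicate block. Il6 came to -0.10 in DESeq2 and -0.084 in limma with 0.1, Il1rn to 0.17 and 0.46 in limma with 1 and 0.1, and Lif to -0.087 with no replicate block. Total-count scaling moved the median line difference of all genes from -0.04 to -0.38. With it and every other alternative run, Csf1, Il11, Lif and Il6 kept their line difference in direction and call where they were tested. Depth limits Csf3 and Il18, at 3 fragments or fewer in every library.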
